A study of Mus musculus with 8 samples.

Results

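The genes described here encode the machinery that docks, primes and fuses synaptic vesicles, together with the related proteins of general membrane traffic that share its gene names. They were taken by name from a table of gene expression in mouse dorsal root ganglia: the synaptotagmins, syntaxins, syntaxin-binding proteins, VAMPs, SNAP proteins with AP180 (Snap91), complexins, synapsins, SV2 proteins, Unc13 proteins, and the vesicle proteins synaptophysin (Syp) and synaptoporin (Synpr). The rule gave 66 members among 40800 gene identifiers. Total RNA had been sequenced from the ganglia of 4 wild-type C57BL/6 mice and of 4 mutants on that background, in which both copies of Tmem184b carry a gene trap, all 6 months old. Such a trap is an inserted cassette that cuts a transcript short, and it acts in every cell of these animals, not in neurons alone. Sex and litter are not labelled. The samples are numbered as wild types 1, 3, 4 and 8 and mutants 1 to 4, and values are listed in that order.

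Dorsal root ganglia hold the cell bodies of sensory neurons, whose axons release transmitter and peptides in the spinal cord and at endings in the skin and organs. At a release site, a VAMP protein on the vesicle pairs with a syntaxin and a SNAP protein on the plasma membrane, and this SNARE complex pulls the membranes together. Stxbp and Unc13 proteins prepare the complex, complexins hold it, synaptotagmins trigger fusion when calcium enters, and synapsins tether the reserve of vesicles. Ganglia contain the transcripts of these proteins, while most of the release sites lie far away in the axon terminals.

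The libraries held 6183618 to 7983821 reads, so that 1 read was worth 0.125 to 0.162 CPM (reads scaled to library size, the unit of the table before its logarithm). Tmem184b (ENSMUSG00000009035; chromosome 15, 79360684 to 79403569 in GRCm38) checks the labels: it stood at 172, 182, 166 and 164 CPM in the wild types and 6.12, 6.95, 5.24 and 8.29 CPM in the mutants. Its log2 difference was -4.64 (SE 0.113; limma adjusted p = 2.57e-12). Neuronal identity was checked with 9 pan-neuronal genes, such as Prph, whose summed level was 7857 to 8611 CPM in the wild types and 7756 to 8358 CPM in the mutants. The 6 markers listed for spinal cord and brain cells summed to 195 to 229.7 CPM in the wild types and 224 to 241 CPM in the mutants, 0 of 5 tested were called and all 5 had fitted differences above 0. Slc17a7, a vesicular glutamate transporter that large sensory neurons also express, made up most of that sum, at 187 ± 19.3 and 198 ± 10.2 CPM in wild type and mutant (SD, n = 4 each). Aqp4 was at 18.7 ± 2.10 and 22.0 ± 1.51 CPM and Gfap at 7.46 ± 5.39 and 12.0 ± 3.50 CPM, while Olig1, Olig2 and Mog had group means of at most 0.724 CPM. Their part in the results was not tested. Xist was low in wild type 3 and in mutants 3 and 4, which carried Ddx3y transcripts, so that male and female samples appear in both groups. Running numbers in the column names, of unstated meaning, separate the genotypes, and a batch recorded in them cannot be told apart from genotype. A tissue sample gives 1 value per gene, in which fewer cells of a type and less RNA per cell cannot be told apart.

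Of the 66 members, 62 passed the filter for testing, a log2 CPM above 0 in 4 or more samples. In the comparison of mutant with wild type, 14 of the 62 had a limma adjusted p under 0.05 and are called changed, 11 lower and 3 higher in the mutant. Among all 15030 genes tested, 5.46% were called by the same rule, 2.64% lower and 2.81% higher. The calls thus covered 22.6% of the tested members. The fitted median log2 difference was -0.05 over the members and 0.07 over all tested genes. At an unadjusted p under 0.05, 18 members were lower and 13 higher, against 21.3% of all genes in either direction. Groups did not overlap for 26 of the 62 members, against 12.4% of all tested genes. In 16 the mutants lay below (4.92% of all genes) and in 10 above (7.5%). With samples centred on their own medians, 13 members were called lower and 1 higher, against 4.7% and 1.36% of all genes.

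Of 33 tested members assigned to neuronal vesicle release, 10 were called lower and 0 higher. At an unadjusted limma p under 0.05, 6 of the 33 were higher and 17 lower. Of 29 tested members assigned to general membrane traffic, 3 rose and 1 fell. The assignment was a choice made with earlier results of these data known. It placed Stxbp6, which rose and whose protein binds syntaxin, in general membrane traffic. The counts by group depend on that choice, and the difference between these groups of members was not tested. Among all 15030 tested genes, 2.64% were called lower and 2.81% higher. At an unadjusted limma p under 0.05, 2122 of all tested genes were higher and 1084 lower. The summed level of all 66 members was 13512, 13906, 13222 and 13424 CPM in the wild types and 12945, 12957, 13013 and 12563 CPM in the mutants. Each mutant sum lay below each wild-type sum, and the means were 13516 ± 287 and 12869 ± 207 CPM (SD, n = 4 each). The mean sum was 4.79% lower in the mutant.

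**Figure D1:**
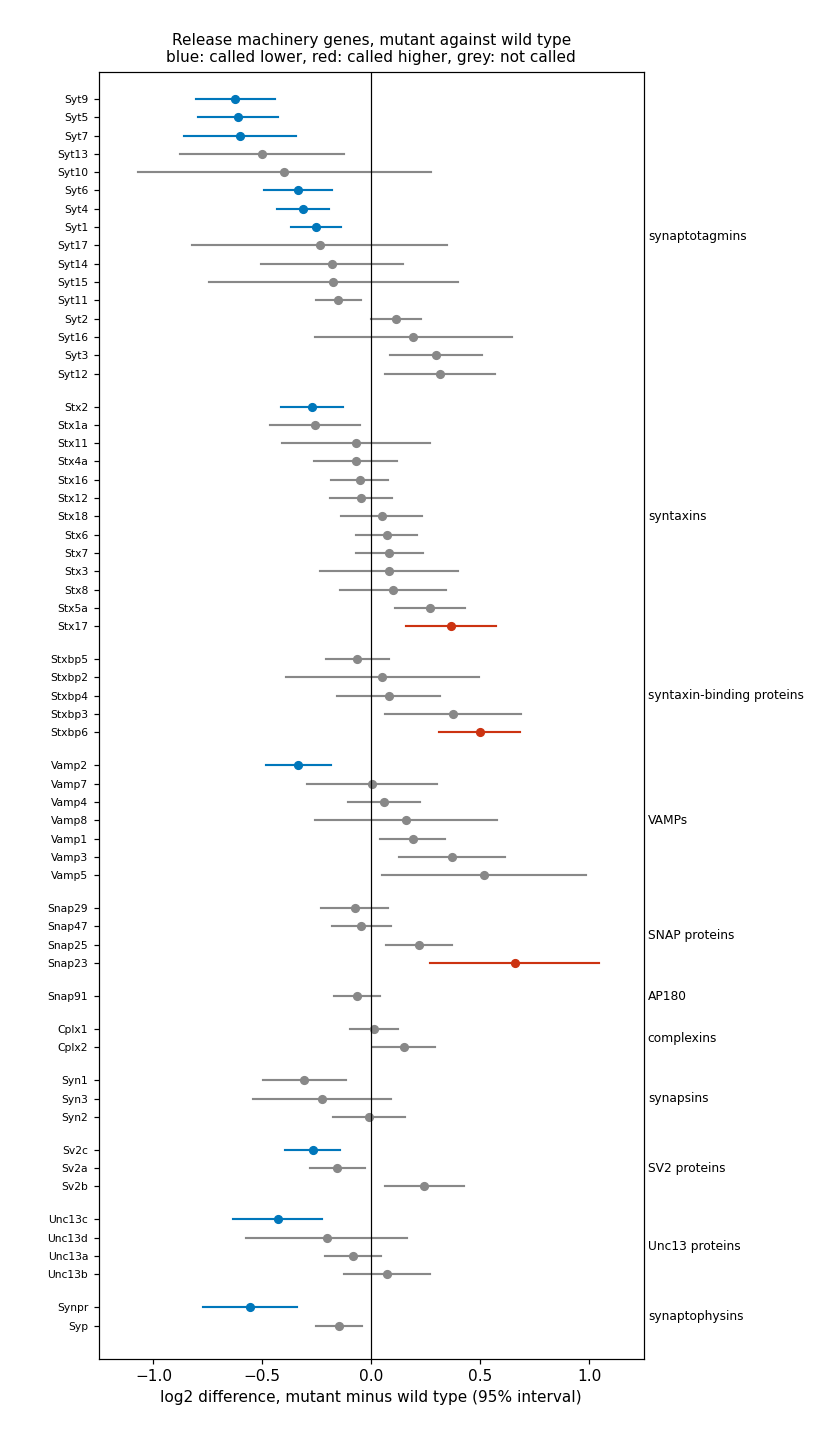
Log2 difference (mutant minus wild type) of 60 of the 62 tested members with 95% intervals from the limma fit, grouped by family. Members called lower are blue, those called higher red and the others grey. Synaptotagmins hold 6 of the 11 lower calls, with Syt9, Syt5 and Syt7 farthest to the left.

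The genes that moved can be seen beside their start sites. The 250 bases before the annotated start of transcription are shown for Syt9, Synpr and Syt1, which fell, and for Stxbp6, which rose, from RefSeq in build GRCm38.p6. They lie at chr7:107370540-107370789 (plus strand), chr14:13284530-13284779 (plus strand), chr10:109010976-109011225 (minus strand) and chr12:45074484-45074733 (minus strand), each written 5′ to 3′ on the strand of its gene. Capitals mark matches, on either strand, to the GC box GGGCGG, the only motif of those searched that occurred in these 4 windows.
Syt9: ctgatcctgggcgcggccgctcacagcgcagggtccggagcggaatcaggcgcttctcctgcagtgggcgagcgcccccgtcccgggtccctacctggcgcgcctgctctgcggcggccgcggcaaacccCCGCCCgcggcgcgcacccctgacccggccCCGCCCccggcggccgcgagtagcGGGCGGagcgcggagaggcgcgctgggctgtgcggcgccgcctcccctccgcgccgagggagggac
Synpr: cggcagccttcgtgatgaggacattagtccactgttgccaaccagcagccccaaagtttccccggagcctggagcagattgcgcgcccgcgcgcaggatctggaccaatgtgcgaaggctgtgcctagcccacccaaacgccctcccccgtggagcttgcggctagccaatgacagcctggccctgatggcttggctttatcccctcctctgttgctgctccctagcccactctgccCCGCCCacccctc
Syt1: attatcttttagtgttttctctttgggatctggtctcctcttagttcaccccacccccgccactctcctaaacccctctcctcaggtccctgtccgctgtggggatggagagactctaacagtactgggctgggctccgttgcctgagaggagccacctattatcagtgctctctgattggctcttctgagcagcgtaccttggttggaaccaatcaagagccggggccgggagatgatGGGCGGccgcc
Stxbp6: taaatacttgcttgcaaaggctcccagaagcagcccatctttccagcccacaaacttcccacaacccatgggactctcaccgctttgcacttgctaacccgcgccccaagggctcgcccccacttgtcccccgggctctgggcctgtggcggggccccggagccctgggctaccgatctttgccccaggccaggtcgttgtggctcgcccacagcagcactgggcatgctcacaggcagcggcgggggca
The Syt9 window holds 3 GC boxes, those of Synpr and Syt1 hold 1 each and that of Stxbp6 holds 0. These windows precede the RefSeq start. By the GENCODE gene places, those of Syt9, Syt1 and Stxbp6 reach into the gene, that of Stxbp6 for most of its length. The 4 windows are therefore not equally placed stretches. RefSeq windows were matched for 51 of the 66 members and for 10 of the 14 called. A GC box occurred in 7 of 7 windows of members that fell, 1 of 3 of members that rose, 35 of 48 of tested members, and 32.7% of all 32851 windows of that length in the table, which also covers noncoding genes. The CRE core TGACG occurred in 0 of the 7, 11 of the 48 and 17.8% of all windows. The E-box CACGTG occurred in 1 of the 7 (Syt6), 6 of the 48 and 6.02% of all. For the RE1 element of the repressor REST, the left part TTCAGCACC was found in Syn1 alone among the 48 windows (0.301% of all) and the right part in 0 of the 48 (0.0974% of all). These motifs do not contain one another. A match describes letters in this stretch and nothing more.

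Synaptotagmins, the calcium sensors of the vesicle, held the largest number of calls. Of 17 members, 16 were tested, 6 fell and 0 rose, with a median log2 difference of -0.24. Summed, they came to 3715 ± 63.6 and 3243 ± 109 CPM in wild type and mutant (SD, n = 4 each). Every mutant lay below every wild type in that sum. The same 6 genes were called lower after median centring and after removal of the trend with GC content, and quantile normalization lost Syt1 and added Syt13.

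Syt9 (ENSMUSG00000062542; chromosome 7, 107370728 to 107548656), a fast calcium sensor that acts beside Syt1 and Syt2, stood at 181, 174, 179 and 173 CPM in the wild types. In the mutants it stood at 118, 128, 123 and 92.4 CPM, so that the groups were far apart and mutant 4 was lowest. The log2 difference was -0.62 (SE 0.0844; limma adjusted p = 0.00105), a level 35.1% lower. Syt5 (ENSMUSG00000004961; chromosome 7, 4539765 to 4547541), another calcium-binding vesicle synaptotagmin, fell by a similar amount, from 58.7, 57.1, 57.2 and 65.9 CPM in the wild types to 39.7, 40.8, 42.7 and 33.3 CPM in the mutants. Its log2 difference was -0.61 (SE 0.0854; limma adjusted p = 0.00127). Syt9 and Syt5 were the members called in all 22 alternative analyses. Among the 22 is a looser threshold, adjusted p under 0.1 in the same fit, which every called member passes by construction.

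Syt7 (ENSMUSG00000024743; chromosome 19, 10389090 to 10453180), a high-affinity sensor known for slow, asynchronous release, fell from 469, 403, 436 and 379 CPM in the wild types to 279, 305, 342 and 203 CPM in the mutants. The groups did not overlap, and mutant 4 was again lowest. The log2 difference was -0.60 (SE 0.121; limma adjusted p = 0.0108), and it was not called when the variance trend was fitted robustly (adjusted p = 0.0850).

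Syt4 and Syt1 fell less. Syt4, a vesicle synaptotagmin known from peptide-containing dense-core vesicles, stood at 275, 287, 282 and 266 CPM in the wild types and 206, 234, 229 and 225 CPM in the mutants. Its log2 difference was -0.31 (SE 0.0556; limma adjusted p = 0.00512). Syt1, the main fast sensor of forebrain synapses, varied little among the wild types, at 435, 441, 432 and 428 CPM, and stood at 357, 372, 391 and 339 CPM in the mutants. Its log2 difference was -0.25 (SE 0.0537; limma adjusted p = 0.0146). Syt6, a relative of Syt3 and Syt10, fell from 156, 154, 179 and 166 CPM to 137, 139.7, 130.0 and 113 CPM, a log2 difference of -0.34 (SE 0.0732; limma adjusted p = 0.0163). For Syt4, Syt1 and Syt6 no mutant reached the wild-type range. A transcript of Syt6 shares 508 bases with Atg4a-ps on the other strand, which had at most 1 read in a library, and at 99.4% identity with Atg4a, which had 13 to 29 reads. Antisense genes with at most 14 reads in a library also overlap Syt4 and Syt7, and whether counting used the strand is not given in the sources used here.

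The other synaptotagmins were not called. Syt2, the fast sensor of large, rapidly firing neurons, stood at 582, 647, 575 and 574 CPM in the wild types and 636, 626, 643 and 664 CPM in the mutants. The ranges overlapped and the 95% interval of its log2 difference, not adjusted for the number of genes, ran from -0.00275 to 0.23. Syt3 was at 42.5 ± 5.77 and 52.1 ± 4.68 CPM in wild type and mutant (limma adjusted p = 0.0953), and Syt12 at 10.6 ± 0.685 and 13.4 ± 1.29 CPM (adjusted p = 0.137). For both, each mutant lay above each wild type. Syt11, which lacks calcium binding and was the most abundant synaptotagmin per kilobase of exon, differed by -0.15 on the log2 scale (adjusted p = 0.0867), with all mutants below all wild types. Syt13 differed by -0.50 from 20 to 42 reads per library (adjusted p = 0.113). Syt10, Syt14, Syt15, Syt16 and Syt17 had group means under 10 CPM and overlapping groups.

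**Figure D2:**
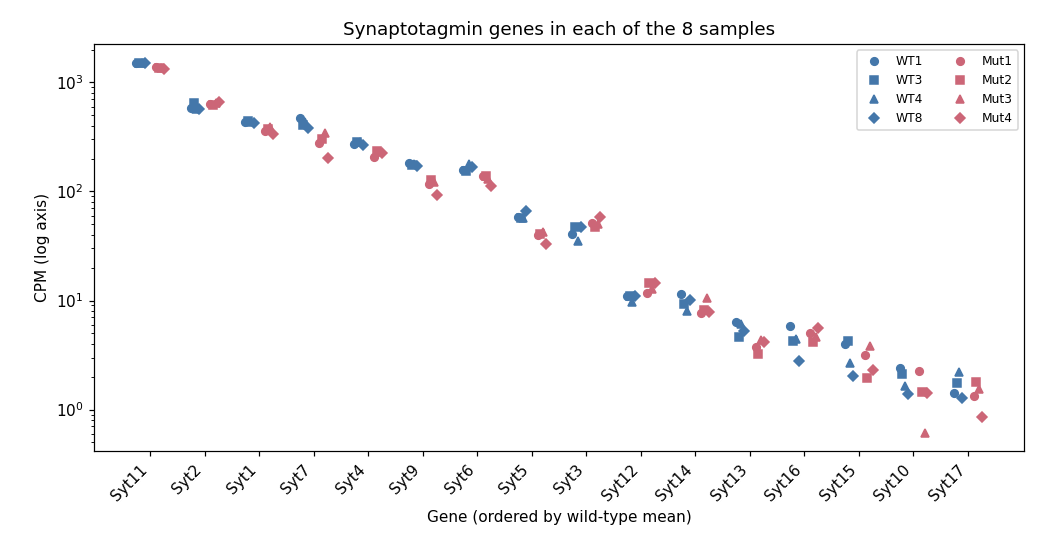
CPM on a log axis of the 16 tested synaptotagmin genes in each of the 8 samples, ordered by wild-type mean, with wild types in blue and mutants in red and a symbol for each label number. The mutants lie below the wild types for Syt9, Syt5, Syt7, Syt4, Syt1 and Syt6 and mix with them for Syt2.

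Expressed against Syt2, the share of Syt1 in the reads of the pair was 42.8%, 40.5%, 42.9% and 42.7% in the wild types against 36.0%, 37.3%, 37.8% and 33.8% in the mutants. The share of Syt9 in the reads of Syt9 and Syt2 was 22.9% ± 1.19 in wild type against 15.2% ± 2.09 in the mutant (SD, n = 4 each). These shares compare a pair within each library, so library scaling does not enter them. They were chosen after the values were seen and were not tested.

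Of the VAMPs, only Vamp2 was called. Vamp2 (ENSMUSG00000020894; chromosome 11, 69088490 to 69092384), the main VAMP of synaptic vesicles, stood at 541, 488, 532 and 550.4 CPM in the wild types and 438, 459, 420.4 and 362 CPM in the mutants. All mutants lay below all wild types, and the log2 difference was -0.33 (SE 0.0699; limma adjusted p = 0.0134). Vamp1, its counterpart in many large sensory and motor neurons, was not called. It stood at 639.7, 736, 648 and 686 CPM in the wild types and 749, 727, 733 and 887 CPM in the mutants, an interval of 0.04 to 0.34 on the log2 scale (adjusted p = 0.128). Vamp2 therefore made up 43.8% ± 2.69 of the reads of the pair in wild type against 35.3% ± 4.28 in the mutant (SD, n = 4 each). The pair of Vamp2 and Vamp1 was also chosen after the values were seen, and its share was not tested. Of the endosomal VAMPs, Vamp3 had all mutants above all wild types, at 10.5 ± 1.04 and 13.6 ± 0.228 CPM, without a call (adjusted p = 0.0734). Vamp4, Vamp7 and Vamp8 overlapped between the groups. Vamp5, a VAMP known from muscle, had 12 to 24 reads per library and the largest uncalled difference of its family, 0.52 (adjusted p = 0.185). Summed skeletal muscle markers ran from 2.86 to 31.4 CPM in the wild types and from 9.41 to 149 CPM in the mutants, highest in mutant 4. Their part in the Vamp5 value was not tested.

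Snap25, the neuronal plasma membrane SNAP, was among the most abundant members and was not called. It stood at 1174, 1368, 1176 and 1395 CPM in the wild types and 1439, 1428, 1445 and 1634 CPM in the mutants, each mutant above each wild type (log2 difference 0.22; limma adjusted p = 0.0856). Quantile normalization brought Snap25 to a call (0.0303), and median centring moved it away (0.439). Snap23, its widely expressed relative, rose from 4.76, 3.51, 6.67 and 5.30 CPM to 7.47, 8.57, 7.70 and 8.15 CPM, with 28 to 45 reads per wild-type and 50 to 57 per mutant library. The log2 difference was 0.66 (SE 0.182; limma adjusted p = 0.0490). This call sat at the threshold. It was lost without wild type 1 (0.117), wild type 3 (0.123), wild type 8 (0.0704) or any of mutants 1 to 4 (0.0690 to 0.115), without a filter (0.0715), under median centring (0.0610), with the GC trend removed (0.0623) and under quantile normalization (0.0907). A pseudogene, Gm6615, matches 306 bases of Snap23 at 95.1% identity, so its count is uncertain. Snap29, Snap47 and Snap91, the last an adaptor of clathrin-coated vesicle retrieval, had overlapping groups.

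Of 14 tested syntaxins, 1 fell and 1 rose. Stx2, a plasma membrane syntaxin, stood at 127, 124, 127 and 139 CPM in the wild types and 98.9, 118, 109 and 102 CPM in the mutants (log2 difference -0.27, SE 0.0666; limma adjusted p = 0.0281). It was not called without wild type 1 (0.0684), wild type 3 (0.0501), wild type 8 (0.0721), mutant 1 (0.0857) or mutant 4 (0.0680). Stx17, which acts in the fusion of autophagosomes with lysosomes, rose from 20.3, 18.8, 18.7 and 21.3 CPM in the wild types to 23.6, 24.4, 25.1 and 29.3 CPM in the mutants (log2 difference 0.37, SE 0.0968; limma adjusted p = 0.0413). Each mutant lay above each wild type. The call was lost under median centring (0.105), quantile normalization (0.1002), removal of the GC trend (0.101) and an Xist covariate (0.0611). It was also lost without wild type 1 (0.0835), wild type 3 (0.106) or wild type 4 (0.0751), and without any of mutants 1 to 4 (0.0566 to 0.1197).

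Stx1a, a neuronal plasma membrane syntaxin, was not called and stood at 45.9 ± 3.66 and 38.4 ± 4.77 CPM in wild type and mutant (log2 difference -0.26; limma adjusted p = 0.132). Stx5a, a Golgi syntaxin, just missed the threshold at a log2 difference of 0.27 (adjusted p = 0.0515), each mutant above each wild type. Stx3 and Stx4a, with Stx6, Stx7, Stx8, Stx11, Stx12, Stx16 and Stx18, had overlapping groups.

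Stxbp6 (ENSMUSG00000046314; chromosome 12, 44852484 to 45074709), which encodes amisyn, a protein that binds syntaxin and can enter SNARE complexes in place of a VAMP, had the lowest adjusted p of the members that rose. It stood at 28.1, 29.6, 35.6 and 29.3 CPM in the wild types and 44.97, 40.8, 41.4 and 45.8 CPM in the mutants, without overlap. The log2 difference was 0.50 (SE 0.0873; limma adjusted p = 0.00496), a level 41.1% higher. It was called in 21 of 22 alternatives, which include the looser threshold that no called member can fail. Stxbp5, or tomosyn, an inhibitor of SNARE assembly, had overlapping groups at 121 ± 6.50 and 116 ± 8.93 CPM in wild type and mutant. Stxbp3 had all mutants above all wild types from 39 to 78 reads per library (adjusted p = 0.153), and Stxbp2 and Stxbp4 overlapped.

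Among priming factors, Unc13c fell and its relatives did not pass the test. Unc13c stood at 89.5, 87.6, 97.8 and 87.5 CPM in the wild types and 62.6, 62.6, 85.5 and 60.5 CPM in the mutants. Mutant 3 lay just under the lowest wild type and the other mutants well below it. The log2 difference was -0.43 (SE 0.0958; limma adjusted p = 0.0178), and the call was lost without wild type 1 (0.0506), mutant 1 (0.0591) or mutant 2 (0.0531). Unc13a, the main Unc13 of fast synapses, was at 329 ± 10.4 and 311 ± 24.0 CPM in wild type and mutant, with an interval of -0.21 to 0.05. Unc13b and Unc13d also overlapped between the groups. Neither tested complexin was called: Cplx1, the most abundant member per kilobase of exon, was at 1010.1 ± 42.9 and 1018 ± 22.7 CPM, with an interval of -0.10 to 0.12. Cplx2 was at 463 ± 42.0 and 514 ± 28.2 CPM (limma adjusted p = 0.200).

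Proteins of the vesicle membrane and its tethers also differed by member. Synpr (ENSMUSG00000056296; chromosome 14, 13284780 to 13616340), or synaptoporin, a relative of synaptophysin, stood at 155, 163, 170.1 and 185 CPM in the wild types and 95.9, 124, 141 and 102 CPM in the mutants. Mutants 1 and 4 were lowest, and no mutant reached the wild-type range. The log2 difference was -0.56 (SE 0.102; limma adjusted p = 0.00616). Syp, a common marker of synaptic vesicles, differed by -0.15 without a call (adjusted p = 0.0939), at 328 ± 5.31 and 296 ± 9.75 CPM, with all mutants below all wild types. It was called lower under median centring (0.0388) and removal of the GC trend (0.0447).

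Sv2c, an SV2 glycoprotein of the vesicle membrane, fell from 737, 767, 723 and 699 CPM to 627, 631, 626 and 546 CPM (log2 difference -0.27, SE 0.0586; limma adjusted p = 0.0159). The groups did not overlap, and mutant 4 was lowest. The call was lost without wild type 1 (0.0551) or wild type 3 (0.0506). Its relatives were not called, Sv2a at -0.16 (adjusted p = 0.143) and Sv2b at 0.24 (0.113). Sv2c made up 68.8% ± 1.82 of the reads of Sv2c and Sv2b in wild type against 60.7% ± 4.39 in the mutant (SD, n = 4 each). This pair was also chosen after the values were seen, and its share was not tested. Syn1, the most abundant synapsin per kilobase of exon, lay close to the threshold at 632, 593, 585 and 573 CPM in the wild types and 530.0, 514, 519 and 379 CPM in the mutants (log2 difference -0.31; limma adjusted p = 0.0590). Every mutant was below every wild type and mutant 4 was far below the rest. Syn1 was called lower under median centring (0.0344), removal of the GC trend (0.0295) and without mutant 3 (0.0467). Syn2 and Syn3 overlapped, at log2 differences of -0.01 and -0.23.

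**Figure D3:**
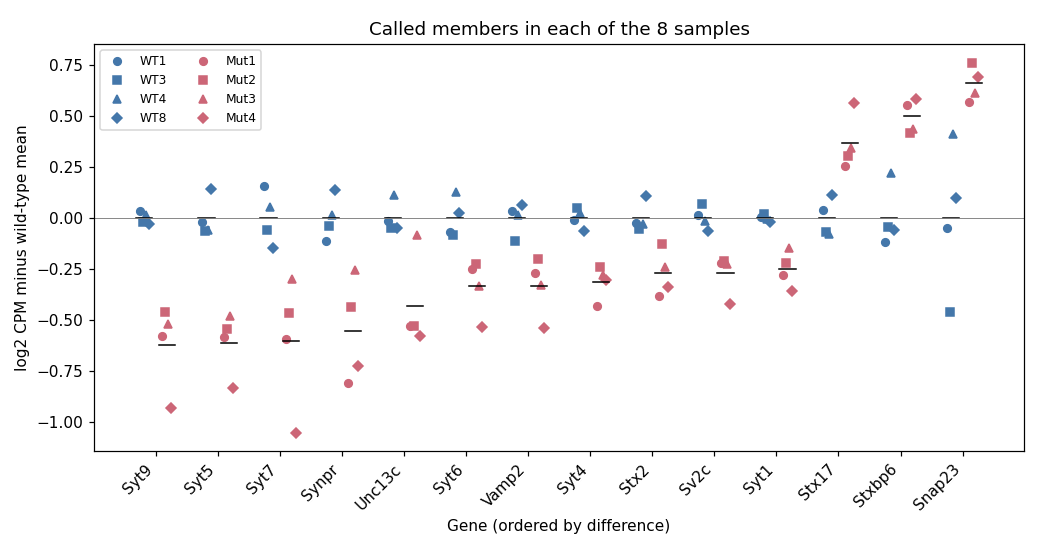
Log2 CPM of the 14 called members in each sample, minus the wild-type mean of the gene, ordered by difference, with wild types in blue, mutants in red and black bars at group means. No gene shows overlap between the groups, and mutant 4 has the lowest mutant value for 8 of the 11 genes that fell.

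Per kilobase of annotated exon, which allows levels of different genes to be set side by side, high wild-type levels were 461 CPM per kilobase for Cplx1, 289 for Syt11, 188 for Snap25 and 180.5 for Syn1. In the mutants the same genes stood at 465, 261, 219 and 147 CPM per kilobase. None of these 4 genes was called. The called genes with the highest wild-type levels on this scale were Vamp2 at 139, Sv2c at 75.4 and Syt4 at 71.3 CPM per kilobase. At the other end, Cplx3, Cplx4, Stx19 and Syt8 had at most 5 reads in any library and were not tested. Neighbouring levels in this order were not compared by a test, and the length of all annotated exons overstates the transcript where isoforms differ.

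Levels of neuron class markers moved in the same libraries. The 11 members that fell summed to 3225, 3146, 3216 and 3139 CPM in the wild types and 2458, 2615, 2640 and 2178 CPM in the mutants, lowest in mutant 4 and then mutant 1. The 6 NP1 markers (nonpeptidergic nociceptors, with Mrgprd) summed to 1402, 1383, 1354 and 1280 CPM in the wild types and 766, 935, 1025 and 708 CPM in the mutants, and all 6 were called lower. The mutants ranked alike in both sums, which was not tested. The 11 members were picked by their calls in these same samples, so the separation of the groups in their sum followed from that choice. The 6 NP3 markers (itch neurons with Nppb and Sst) were all called lower, at 121 to 165 CPM in the wild types and 30.6 to 37.9 CPM in the mutants, and 2 of 3 NP2 markers were called lower. Of 5 peptidergic markers, 0 were called, with summed levels of 1219 to 1286 CPM in the wild types and 1142 to 1312 CPM in the mutants. Fitted differences were below 0 for 3 of them and above 0 for 2. Trpv1 differed by -0.32 (limma adjusted p = 0.0579), with overlapping groups. None of the 9 pan-neuronal markers was called, and 6 had fitted differences below 0 and 3 above. Rbfox3 differed by -0.26 (limma adjusted p = 0.0711), with all mutants below all wild types. Snhg11 differed by 0.41 in the other direction (limma adjusted p = 0.172), with overlapping groups.

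The 6 markers of large neurofilament neurons, such as Nefh, had fitted differences above 0 without a call, at 6044 to 6993 CPM in the wild types and 6716 to 7630 CPM in the mutants. The median of their log2 differences was 0.16. Skeletal muscle markers, uncalled, summed to 149 CPM in mutant 4 and at most 43.2 CPM in any other sample. Among other cells, 1 of 4 satellite glia, 1 of 6 myelinating Schwann cell, 1 of 4 tested macrophage and 1 of 4 fibroblast markers were called higher and 0 lower. Summed macrophage markers ran from 32.9 to 50.8 CPM and from 46.8 to 72.6 CPM in wild type and mutant, and satellite glia markers from 523 to 595 and from 589 to 821 CPM. The part of any of these cell types in the members' differences was not tested.

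**Figure D4:**
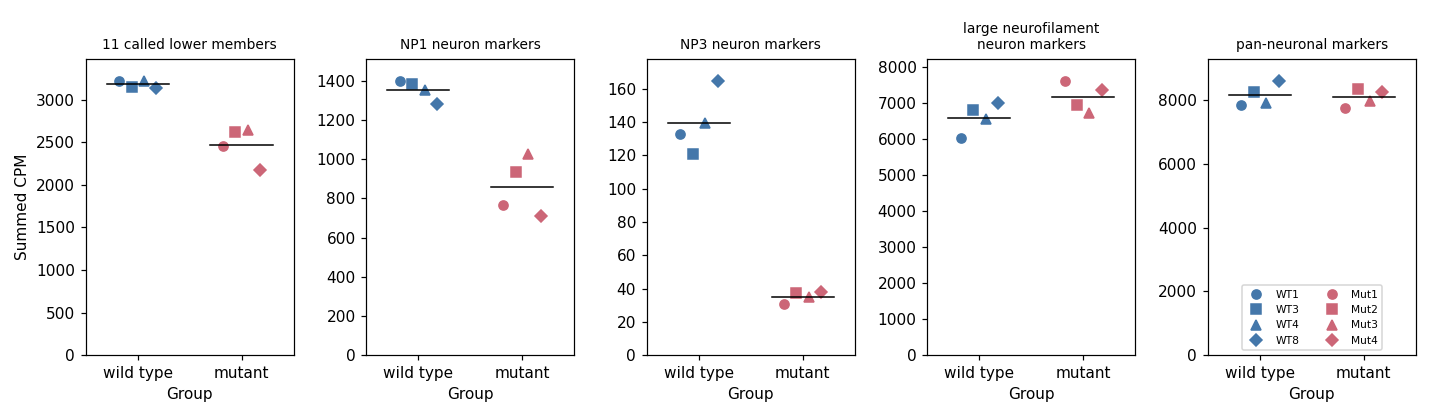
Summed CPM in each sample of the 11 members called lower and of marker genes for NP1, NP3, large neurofilament and all neurons, with axes starting at 0, wild types in blue, mutants in red and black bars at group means. The first 3 panels separate the groups, the first of them by the choice of its genes. Pan-neuronal markers lie at 7857 to 8611 and 7756 to 8358 CPM in wild type and mutant.

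The wider release pathway was followed in 81 tested genes outside the naming rule, covering the active zone, SNARE recycling, further vesicle proteins and vesicle retrieval. Of these, 5 fell and 0 rose, which is 6.17% called in either direction against 5.46% of all genes. By direction, 2.64% of all genes were called lower and 2.81% higher. The median log2 difference of the 81 genes was -0.01. Apba1, a neuronal adaptor protein, fell from 1042 ± 27.7 to 778 ± 72.1 CPM (SD, n = 4 each; log2 difference -0.43; limma adjusted p = 0.00210). The small GTPases Rab27a and Rab27b, which bring secretory granules to the membrane, fell by 0.69 and 0.48 on the log2 scale (limma adjusted p = 0.0107 and 0.00449). Rab27a stood at 29.2, 27.3, 27.6 and 33.8 CPM in the wild types and 18.7, 24.6, 15.2 and 15.2 CPM in the mutants, and Rab27b at 109, 116, 118 and 130.2 and 76.6, 97.2, 89.6 and 76.7 CPM. Neither showed overlap between the groups.

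The other calls were in vesicle retrieval, Ap2a2, a subunit of the clathrin adaptor, at -0.24 (limma adjusted p = 0.0187), and Pacsin1, a membrane-bending protein of endocytosis, at -0.35 (0.0373). Ap2a2 was not called without wild type 1 (0.0642), wild type 3 (0.0531) or mutant 1 (0.0588). Pacsin1 was not called without wild type 1 (0.117), wild type 3 (0.0505), wild type 4 (0.0681), wild type 8 (0.0538) or mutant 2 (0.0570). By list, 1 of 21 active zone genes, 2 of 24 genes of SNARE recycling and regulation, 0 of 11 further vesicle proteins and 2 of 25 retrieval genes were called.

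Two-sided exact permutation over the 70 assignments of the 8 samples can give no p below 0.0286, which any gene without overlap between the groups reaches, as all 14 called members do. The limma calls rest on sharing variance across genes, and no limma fit without that sharing was run. With variance still shared but without the mean-variance trend, 0.945% of all genes were called. Then 12 of the 14 members were not called, at limma adjusted p of 0.0554 to 0.134, and Syt9 (0.0475) and Syt5 (0.0381) remained. Of the 14, 9 were called in each of the 8 fits that left out a sample, and without mutant 4 there were 11 calls, with Snap23, Stx17 and Stx2 lost.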

How the data were processed

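What the authors deposited is 1 table of log2 CPM values with a small prior count, judging by the values. Salmon 0.11.1, DESeq2 and build mm9 appear in the submitters' processing notes, without stated roles. Annotation release and strand use are not given in the sources used here. The deposited percent GC per gene served in 1 alternative. Of 41422 lines, 402 identifiers were repeated with equal values and kept once. Subtracting the shared floor of -1.79 on the linear scale gave whole reads (within 0.01) for 100% of values up to 1000 reads. CPM was computed from these reads. Reads are not independent molecules. The limma p-values set each difference against a variance between these samples that was moderated across genes.

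Mutant and wild type were compared with limma 3.58.1 in R 4.3.3 (a linear model per gene, moderated with a mean-variance trend, two-sided, no covariate) on all genes with log2 CPM above 0 in at least 4 samples. Benjamini-Hochberg adjustment covered all tested genes. Differences are on the moderated scale and understate change at few reads. The procedure was run on simulated reads with a larger log2 difference than any called member showed. Differences of the size of the members' were not simulated. Members, lists and alternatives were chosen with earlier results of these data known. Genes named are called members, a core set, each family's highest and most different member, and called pathway genes, beside others listed by family. Results for 2 members are not reported here. Places are from GENCODE M21 (GRCm38), found for 65 of 66 members, and similarity from blastn. The 22 alternatives covered filters, pseudocount, scaling, variance model, sample weights, Xist, voom, GC, threshold, each sample left out and a replicate block.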

Additional observations from a re-analysis of the deposited data

Results flagged for a closer look

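In 80 groups of 4 values, 10 held a sample far from the other samples of its group, where about 1 in 20 groups does so by chance, or 4 here. Mutant 4 was such a sample for 6 genes (log2 CPM). It was low for Apba1, at 9.39 against 9.65 to 9.68, for Pacsin1, at 7.95 against 8.36 to 8.41, for Sv2c, at 9.09 against 9.29 to 9.30, and for Syn1, at 8.57 against 9.01 to 9.05. It was high for Snap25, at 10.67 against 10.48 to 10.50, and for Vamp1, at 9.79 against 9.51 to 9.55. Mutant 3 was high for Unc13c, at 6.42 against 5.93 to 5.97. Wild type 8 was low for Ap2a2, at 8.76 against 8.87 to 8.89, and for Stx1a, at 5.35 against 5.58 to 5.60. Wild type 3 was high for Syt2, at 9.34 against 9.17 to 9.19.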

How the results depend on the processing

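Without the mean-variance trend, members called numbered 2 lower and 0 higher, pathway genes 0 lower, and all genes 75 lower and 67 higher. The cause was not tested. Median centring gave 13 lower and 1 higher members (median -0.14), 8 pathway genes lower, and 706 lower and 204 higher genes overall. Removal of the GC trend gave 1 higher member (median -0.14), 10 pathway genes lower, and 737 lower and 225 higher overall. The median over all genes was 0.07, and -0.03 and -0.02 under these. Quantile normalization gave 3 pathway genes lower and 271 genes higher, and sample weights gave 8 pathway genes lower. At an adjusted p under 0.1, 7 members were higher, 8 pathway genes lower and 2 higher, and 612 genes lower and 876 higher.

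With each of the 8 samples left out in turn, members called ranged from 8 to 12 lower and 1 to 3 higher, and their median from -0.0676 to -0.0290. Pathway genes ranged from 3 to 7 lower and 0 to 1 higher, and all genes from 230 to 427 lower and 174 to 572 higher.

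Numbers 1, 3 and 4 occur in both groups, and no pairing by number is stated. Correlations of deviations between samples of the same number were 0.0806, 0.0414 and 0.0575, which cannot settle whether they are paired. In these 6 samples, a replicate block gave 10 lower and 1 higher members (median -0.0733), with 8 pathway genes lower and 1 higher. Among all genes it gave 345 lower and 326 higher. Without the block, 9 members were lower and 1 higher (median -0.0733), and among all genes 267 were lower and 180 higher.

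Of 40 named genes, 4 changed direction, all uncalled. Cplx1 was at -0.0803 under centring, -0.0551 with the GC trend removed and -0.0168 to 0.0301 with samples left out, negative without wild type 4. Stx3 was at -0.00966, -0.00210 and, under quantile normalization, -0.0278. Unc13b was at -0.0209 under centring, -0.0225 with the GC trend removed and -0.0230 in the 6 samples with or without the block. Syn2 was at 0.0333 under quantile normalization and -0.0936 to 0.0389 with samples left out, positive without wild type 1, wild type 3, mutant 3 or mutant 4. Depth limited members such as Vamp5, with 12 to 24 reads in a library.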
